A study of Mus musculus with 9 samples.

Results

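Glucose transporters and enzymes of glycolysis were followed in E0771 cells, a mouse mammary tumor line, after depletion of pyruvate carboxylase (PC, gene *Pcx*), the mitochondrial enzyme that turns pyruvate into oxaloacetate. The genes were 10 listed by name: the transporters *Slc2a1* and *Slc2a3*, the hexokinases *Hk1* and *Hk2*, the phosphofructokinases *Pfkl* and *Pfkp*, and *Aldoa*, *Pgam1*, *Eno1* and *Pkm*. A probe set belonged to them if the platform annotation gave it 1 of these symbols, which held for 9 genes with 1 probe set each among 22206 probe sets. *Eno1*, which encodes the main enolase of most tissues, had no probe set named here and was not analysed. The cells were measured in 3 groups of 3 Clariom S arrays each: cells carrying shPC28, a short hairpin RNA against *Pcx*; cells carrying shPC25, another hairpin against *Pcx*; and cells carrying a scrambled hairpin (scram). All cells had received a lentiviral hairpin in the pLKO.1 vector and puromycin selection, and grew untreated in DMEM with 5.6 mM glucose, 4 mM glutamine and 10% serum. Whether each line was a pool or a single clone is not given in the sources used here. Since no label ties the arrays of a group to different cultures, each p-value reflects the spread among 3 arrays, and that spread may be technical.

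Glycolysis begins with glucose entering through SLC2A (GLUT) transporters down its concentration gradient. Hexokinases trap it as glucose 6-phosphate, and phosphofructokinase then commits the sugar to breakdown. Aldolase splits the product into triose phosphates, which are oxidized and rearranged by glyceraldehyde-3-phosphate dehydrogenase, phosphoglycerate kinase, phosphoglycerate mutase and enolase. Pyruvate kinase makes pyruvate, which is the substrate of PC in mitochondria and of lactate dehydrogenase in the cytosol. Most steps have several isozymes from different genes, and tumor cells are known for using *Slc2a1*, *Hk2* and the M2 splice form of *Pkm*.

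Values are log2 signals, 1 per probe set and array, and a change of 1 is a doubling. An adjusted p under 0.05 over all 22206 probe sets in limma counted as changed. *Pcx* itself read 7.01, 6.85 and 6.57 with shPC28, 5.64, 5.43 and 5.53 with shPC25, and 9.18, 8.84 and 9.20 with scram, so that each group stood apart. *Pcx* was 4.80-fold lower with shPC28 (adjusted p = 4.13e-06) and 11.6-fold lower with shPC25 (adjusted p = 1.28e-05) than with scram, and 1.28 higher on the log2 scale with shPC28 than with shPC25 (adjusted p = 0.000307). Arrays of 1 group correlated at 0.995 to 0.998 across probe sets, against 0.979 to 0.981 between shPC28 and scram and 0.992 to 0.993 between shPC25 and scram. Of the cell type markers, 4 of 6 epithelial and 3 of 5 measured mesenchymal genes lay above the median of all probe sets, as did 1 of 5 macrophage (*Cd14*), 1 of 4 fibroblast (*Col1a1*), 0 of 5 lymphocyte, 0 of 5 endothelial and 0 of 4 adipocyte genes. *Cd14* changed by -2.38 with shPC28 (adjusted p = 0.000282) and by -1.07 with shPC25 (adjusted p = 0.0447), and *Col1a1* by -0.63 with shPC28 (adjusted p = 0.00866) and by -0.96 with shPC25 (adjusted p = 0.00283), and their part in the results was not tested. Other genes of these lists did not all follow. With shPC28, *Dcn* changed by 0.66, *Col1a2* by 0.51 and *Lum* by -0.49, all at low signal. *Adgre1*, *Csf1r*, *Ptprc* and *Itgam* did not pass with either hairpin. The adipocyte gene *Fabp4* read 5.09 with scram. It changed by -1.90 with shPC28 (adjusted p = 0.000336) and by -1.85 with shPC25 (adjusted p = 0.00169). In RNA from whole cultures, fewer cells of a type and less RNA per cell cannot be told apart.

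The DNA just before the start is shown for the 4 genes that had a single start in the table and whose change with shPC28 passed the test under every alternative run: *Hk2*, *Pgam1* and *Slc2a1*, which were lower, and *Pfkl*, which was higher. Each is the 250 bases before the transcript start on the gene's strand, from RefSeq on GRCm38.p6. Capitals mark ACGTG or its reverse complement CACGT, 1 form of the core letters of the hypoxia response element that HIF1 binds. GCGTG, another form of that core, was neither marked nor counted.
Hk2 (chr6:82774455-82774704, minus strand): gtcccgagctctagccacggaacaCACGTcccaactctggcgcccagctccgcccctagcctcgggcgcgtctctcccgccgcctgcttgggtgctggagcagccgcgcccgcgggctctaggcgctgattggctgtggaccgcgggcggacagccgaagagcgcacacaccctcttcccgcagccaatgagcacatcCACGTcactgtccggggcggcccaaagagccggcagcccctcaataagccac
Pgam1 (chr19:41911621-41911870, plus strand): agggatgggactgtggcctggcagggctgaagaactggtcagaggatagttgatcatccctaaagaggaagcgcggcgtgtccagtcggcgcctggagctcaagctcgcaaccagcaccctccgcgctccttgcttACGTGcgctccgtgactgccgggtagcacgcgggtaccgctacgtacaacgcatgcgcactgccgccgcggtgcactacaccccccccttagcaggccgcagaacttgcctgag
Slc2a1 (chr4:119108495-119108744, plus strand): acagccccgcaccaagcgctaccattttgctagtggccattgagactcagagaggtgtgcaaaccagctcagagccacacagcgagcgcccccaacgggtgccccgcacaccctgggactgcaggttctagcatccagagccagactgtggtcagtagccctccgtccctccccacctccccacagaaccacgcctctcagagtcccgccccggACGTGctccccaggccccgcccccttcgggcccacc
Pfkl (chr10:78009808-78010057, minus strand): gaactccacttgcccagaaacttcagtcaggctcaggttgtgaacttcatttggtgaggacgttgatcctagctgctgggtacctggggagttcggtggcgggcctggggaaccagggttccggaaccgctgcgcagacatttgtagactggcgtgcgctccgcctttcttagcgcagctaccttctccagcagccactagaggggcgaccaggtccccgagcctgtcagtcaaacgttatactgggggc
The letters ACGTG, searched on both strands, occurred 2 times in the *Hk2* window, at 226 and 52 bases before the start, 1 time in that of *Pgam1*, at 114 bases, and 1 time in that of *Slc2a1*, at 36 bases. Positions are those of the first base of a match. The *Pfkl* and *Pfkp* windows held 0 matches of ACGTG, though the letters GCGTG are in both. Among listed genes with several starts, 2 of the 3 *Aldoa* windows and 1 of the 2 *Pkm* windows held 1 each, and those of *Hk1* and *Eno1* held 0. In all, 5 of the 9 genes with a window held ACGTG and 6 held GGGCGG in at least 1 window, so that lower and higher genes were in both sets. Of 32851 such windows over all mouse genes, 16.6% held ACGTG. Shares of all windows count single windows, while the counts of genes take a match in any of up to 3 windows. The 2 measures are therefore not alike, and a gene with several windows has more room for a match. The E-box letters CACGTG, which MYC and the glucose sensor partners MLX and MLXIP bind, were in 0 windows of the listed genes and in 6.0% of all windows. GGGCGG, the letters of an SP1 box, occurred 3 times in the *Hk2* window, 2 times in that of *Slc2a1*, 4 times in that of *Pfkp* and 0 times in those of *Pgam1* and *Pfkl*, and in 32.7% of all windows. ACGTG lies within CACGTG, so that each match of the longer motif counts for the shorter one too. A match describes letters in a window and is not a binding site.

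**Figure D1:**
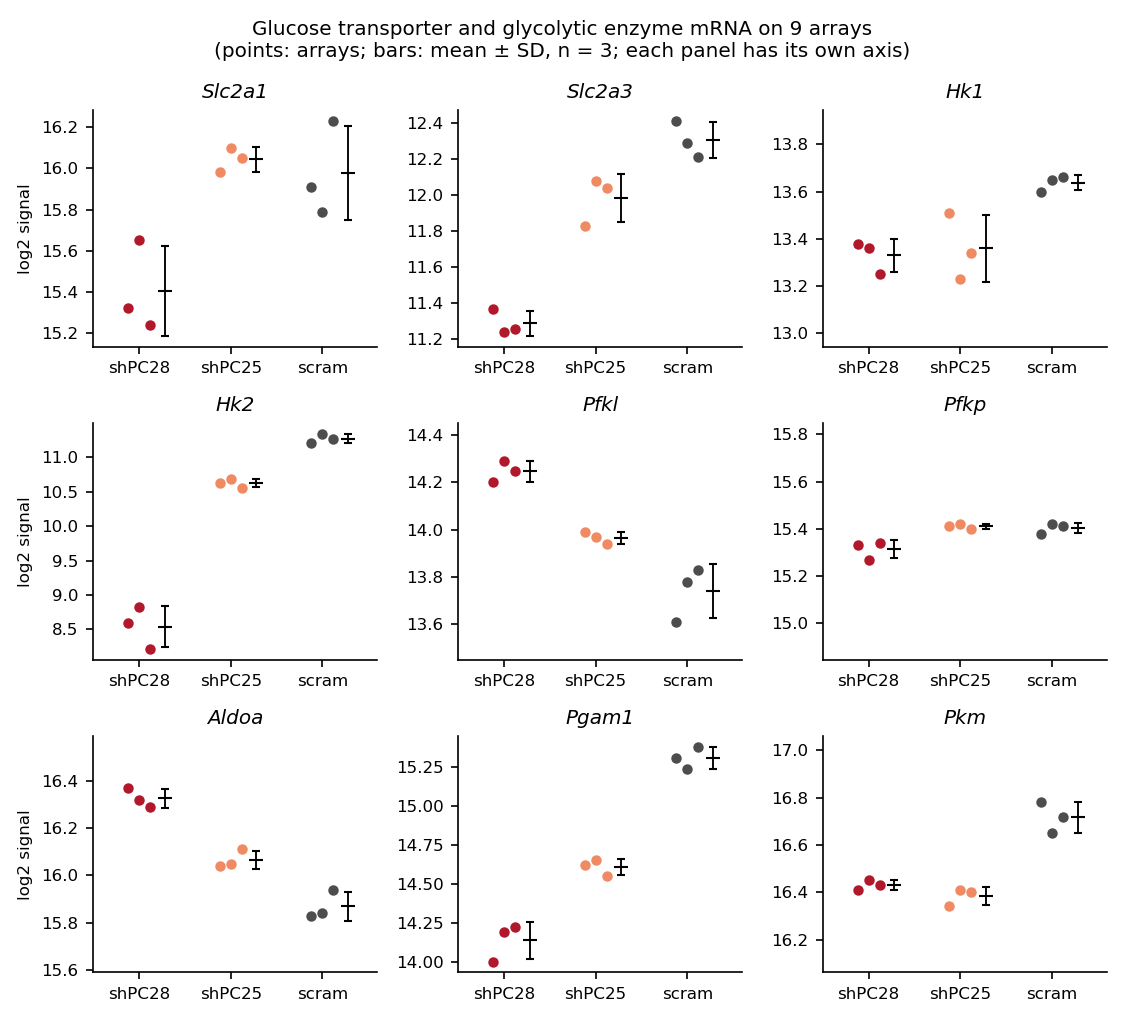
Log2 signal of the 9 measured genes on each array (points), by group, with the mean and SD of 3 arrays beside them; each panel has its own vertical axis. *Hk2* lies between 8.22 and 8.82 on the shPC28 arrays, between 10.56 and 10.68 on the shPC25 arrays and between 11.21 and 11.34 on the scram arrays, and *Aldoa* runs the other way.

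With shPC28, 8 of the 9 measured genes differed from scram. Both transporters, both hexokinases, the mutase *Pgam1* and *Pkm* were lower, and the phosphofructokinase *Pfkl* and the aldolase *Aldoa* were higher, while *Pfkp* did not pass the test. Among all probe sets, 20.5% were lower and 21.2% were higher in this comparison, against 6 and 2 of these 9. All 9 read above the median probe set (4.95), so the shares of all probe sets are not a like background. With the dimmest 50% left out, 4347 of the remaining probe sets were lower and 3869 higher, beside 4557 and 4708 of all. The 9 genes stayed at 6 lower and 2 higher. Calling was thus more common among brighter probe sets. Whether these 9 exceeded probe sets of like signal was not tested. The median change of the 9 was -0.31, and that of all probe sets was 0.10. With shPC25, *Hk2*, *Pgam1* and *Pkm* were lower than with scram and 0 of the 9 were higher, where 11.3% of all probe sets were lower and 9.19% were higher. Here the median of the 9 was -0.28 against 0.04 for all probe sets. The number for shPC25 depended on the variance model, the filter and the scaling: it was 7 of 9 (5 lower, 2 higher) with an intensity trend in eBayes, 7 of 9 without the dimmest 50% of probe sets, 5 of 9, all lower, with arrays centered on olfactory receptor probe sets, and 4 of 9 with arrays centered on their median. In that last setting *Pfkl* (0.33, adjusted p = 0.0367) and *Aldoa* (0.30, adjusted p = 0.0494) passed as higher, and *Pkm* did not pass (adjusted p = 0.112). Calls over all probe sets moved too, from 4541 to 5784 with the trend, 4254 on olfactory receptor probe sets and 5127 with median centering. Without the dimmest 50%, 5244 of the remaining probe sets were called (2761 lower, 2483 higher). The shares of all probe sets thus understate calling at bright signal with shPC25 too.

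Array values did not overlap between shPC28 and scram for 9 of the 9 genes, where 51.1% of all probe sets did not overlap. Between shPC25 and scram this held for 7 of 9, against 38.9% of all probe sets, with *Slc2a1* and *Pfkp* as the exceptions. Of 23 further pathway genes above the median probe set, arrays did not overlap scram for 20 with shPC28 and 13 with shPC25. Both comparisons used the same scram arrays.

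**Figure D2:**
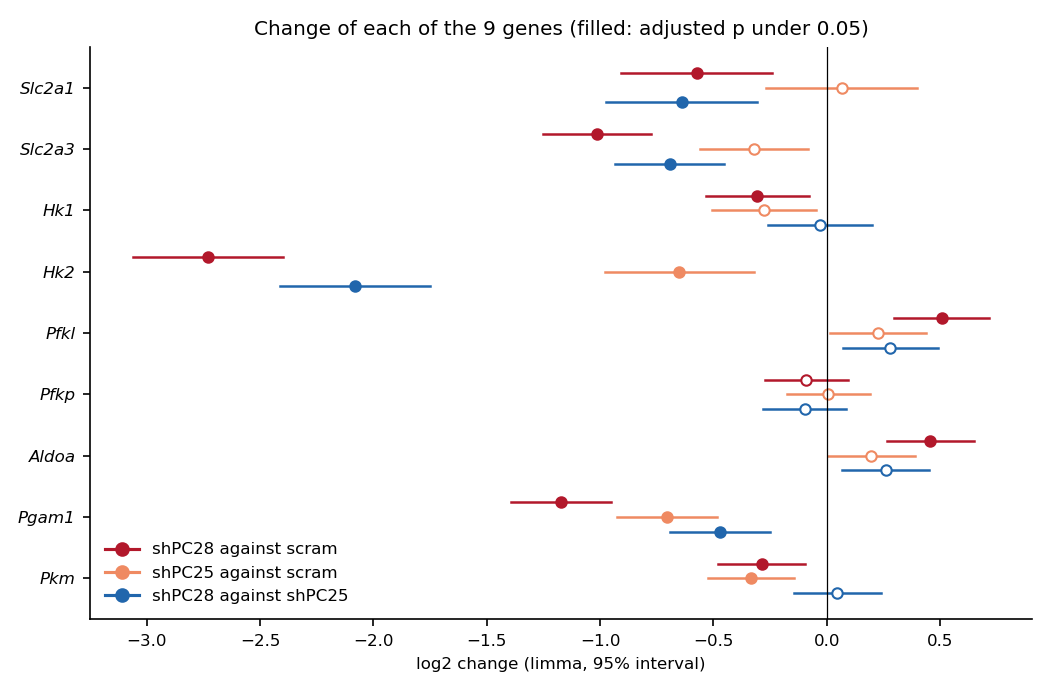
Log2 change (horizontal axis, with the 95% interval of the limma fit) of each measured gene for shPC28 against scram, shPC25 against scram, and shPC28 against shPC25; filled points have an adjusted p under 0.05. *Hk2* with shPC28 lies farthest from 0, at -2.73, and the *Pfkp* intervals all cross 0.

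At the entry of glucose, both transporters were lower with shPC28, and neither passed the test with shPC25. *Slc2a3* encodes GLUT3, a high-affinity transporter known from neurons. It read 11.37, 11.24 and 11.26 with shPC28, 11.83, 12.08 and 12.04 with shPC25, and 12.41, 12.29 and 12.21 with scram. The groups stood apart, with shPC28 lowest and scram highest. *Slc2a3* was 2.02-fold lower with shPC28 than with scram (log2 change -1.01, SE 0.11, adjusted p = 6.36e-05), and its change of -0.32 with shPC25 missed the threshold (95% interval -0.56 to -0.08, adjusted p = 0.064). That change passed under 5 alternatives, with adjusted p-values down to 0.0152.

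*Slc2a1* encodes GLUT1, the transporter of basal glucose uptake in most cells. Its values were 15.32, 15.65 and 15.24 with shPC28, 15.98, 16.10 and 16.05 with shPC25, and 15.91, 15.79 and 16.23 with scram. The shPC28 arrays were all below the rest, and the shPC25 arrays lay within the range of scram. *Slc2a1* was 1.49-fold lower with shPC28 (log2 change -0.57, SE 0.15, adjusted p = 0.0121). With shPC25 its change was 0.07, with a 95% interval of -0.27 to 0.40 (adjusted p = 0.802).

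Of 9 other listed transporters of the SLC2A family, 0 were higher and 2 were lower with shPC28, and 0 were higher and 1 was lower with shPC25. Over all probe sets, 21.2% were higher and 20.5% lower with shPC28, and 9.19% were higher and 11.3% lower with shPC25. Several of the 9 read below the median probe set, among them *Slc2a6* (mean 3.26 with scram) and *Slc2a13* (3.09). *Slc2a5*, the fructose transporter GLUT5, averaged 5.16 ± 0.05 with shPC28, 6.13 ± 0.10 with shPC25 and 6.86 ± 0.24 with scram (SD, n = 3 each). It was 3.23-fold lower with shPC28 (adjusted p = 1.08e-05) and 1.65-fold lower with shPC25 (log2 change -0.73, adjusted p = 0.00503, and -0.44 after quantile normalization). *Slc2a10* changed by -1.15 with shPC28 (adjusted p = 0.041), a call lost without shPC28 replicate 1 or 3, shPC25 replicate 3 or any scram array (adjusted p up to 0.123), with the replicate block (adjusted p = 0.0786) and after quantile normalization (-0.68, adjusted p = 0.231). *Txnip*, whose protein restrains glucose uptake by driving transporters off the cell surface, was also lower with shPC28, at 5.31, 5.86 and 5.27, against 6.36, 6.37 and 7.10 with shPC25 and 7.26, 7.55 and 6.51 with scram. Its change was -1.63 with shPC28 (adjusted p = 0.00221) and -0.50 with shPC25 (adjusted p = 0.305).

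Hexokinase carried the difference of greatest size among the 9 genes. *Hk2* encodes a hexokinase that binds to mitochondria and is high in muscle, fat and many tumors. It read 8.59, 8.82 and 8.22 with shPC28, 10.63, 10.68 and 10.56 with shPC25, and 11.21, 11.34 and 11.27 with scram. The groups were far apart beside the spread within each, which was widest with shPC28. *Hk2* was 6.63-fold lower with shPC28 than with scram (log2 change -2.73, SE 0.15, 95% interval -3.06 to -2.40, adjusted p = 1.58e-06), and 1.57-fold lower with shPC25 (log2 change -0.65, SE 0.15, adjusted p = 0.0139). Without scram replicate 2, the shPC25 change had an adjusted p of 0.0524.

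*Hk1*, the broadly expressed hexokinase, moved less. Its arrays gave 13.38, 13.36 and 13.25 with shPC28, 13.51, 13.23 and 13.34 with shPC25, and 13.60, 13.65 and 13.66 with scram. All hairpin arrays against *Pcx* were below all scram arrays, and those of shPC28 and shPC25 overlapped. *Hk1* was 1.24-fold lower with shPC28 (log2 change -0.31, SE 0.10, adjusted p = 0.0358), and its change of -0.28 with shPC25 missed the threshold (adjusted p = 0.088). The call with shPC28 was lost when any array other than shPC25 replicates 1 and 2 was left out, with adjusted p-values from 0.0521 to 0.103, the highest without shPC28 replicate 3. Centering arrays on their median gave a change of -0.20 (adjusted p = 0.128), centering on olfactory receptor probe sets gave -0.51, and the replicate block an adjusted p of 0.0806.

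The difference between *Hk2* and *Hk1* within each array asks whether both hexokinases changed by the same amount. It was -4.79, -4.54 and -5.03 with shPC28, -2.88, -2.55 and -2.78 with shPC25, and -2.39, -2.31 and -2.39 with scram. Relative to scram the difference dropped by 2.42 with shPC28 and by 0.37 with shPC25, and the groups did not overlap. An exact permutation test of all 3 groups together, over the 1680 ways to divide the 9 arrays, gave p = 0.00357, the smallest this design allows, and 0.00536 after Benjamini-Hochberg adjustment over 3 paralog pairs. The same test gave p = 0.00357 (exact, adjusted p = 0.00536) for *Pfkp* minus *Pfkl*, which was 0.60 lower with shPC28 and 0.22 lower with shPC25 than with scram. For *Slc2a1* minus *Slc2a3* it gave p = 0.179 (exact, adjusted p = 0.179), with shifts of 0.44 with shPC28 and 0.39 with shPC25. Without scram replicate 3 the shPC28 shift of that pair was 0.61, and the exact p of the 3 groups together was 0.0357. The test does not say which hairpin differs from scram. With 3 against 3 arrays, the smallest exact p is 0.1.

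**Figure D3:**
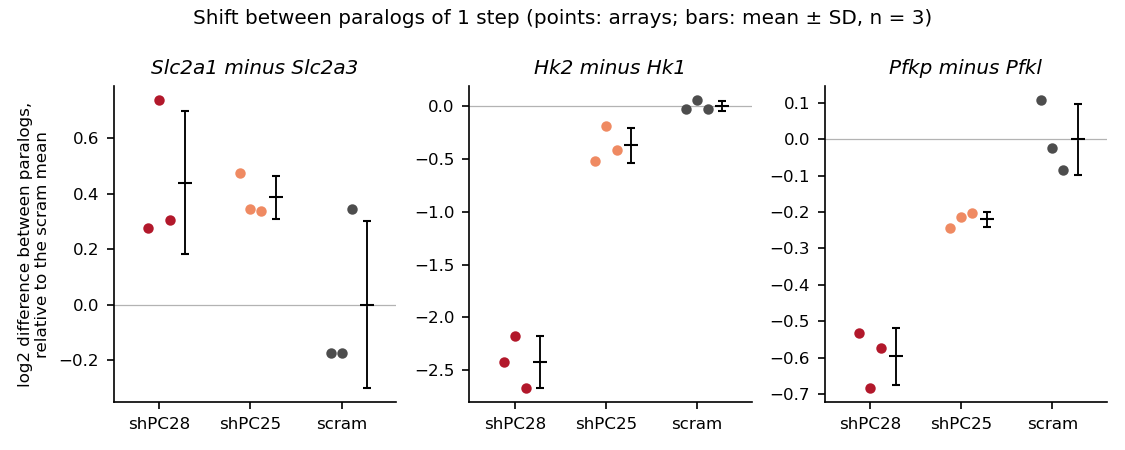
Log2 difference between paralogs of a step on each array (points), set relative to the scram mean on the vertical axis, by group, with mean and SD of 3 arrays. *Hk2* against *Hk1* and *Pfkp* against *Pfkl* separate all groups, and in *Slc2a1* against *Slc2a3* 1 scram array lies among the others.

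At the phosphofructokinase step the isozymes did not move alike. *Pfkl*, the liver-type subunit, read 14.20, 14.29 and 14.25 with shPC28, 13.99, 13.97 and 13.94 with shPC25, and 13.61, 13.78 and 13.83 with scram. All groups stood apart, with shPC28 highest. *Pfkl* was 1.42-fold higher with shPC28 (log2 change 0.51, SE 0.09, 95% interval 0.30 to 0.72, adjusted p = 0.0019), and its change of 0.23 with shPC25 missed the threshold (adjusted p = 0.125). *Pfkp*, the platelet-type subunit, read 15.33, 15.27 and 15.34 with shPC28, 15.41, 15.42 and 15.40 with shPC25, and 15.38, 15.42 and 15.41 with scram. Its values lay within a narrow range in all groups. The 95% interval of its change was -0.27 to 0.09 with shPC28 (adjusted p = 0.408) and -0.18 to 0.19 with shPC25 (adjusted p = 0.967). Centering on olfactory receptor probe sets gave *Pfkp* a change of -0.29 with shPC28 (adjusted p = 0.0211), and centering on the median gave 0.01.

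The third subunit gene, *Pfkm*, known from muscle, averaged 11.95 ± 0.10 with shPC28, 11.49 ± 0.06 with shPC25 and 11.17 ± 0.15 with scram (SD, n = 3 each). It was 1.72-fold higher with shPC28 (adjusted p = 0.000338), and 0.32 was its log2 change with shPC25 (adjusted p = 0.0664). Phosphofructokinase is switched on by fructose 2,6-bisphosphate, which PFKFB enzymes make and TIGAR removes. *Tigar*, a p53-induced gene in human cells, read 9.76, 9.67 and 9.69 with shPC28, 11.20, 11.25 and 11.03 with shPC25, and 11.36, 11.57 and 11.59 with scram. It was 3.48-fold lower with shPC28 (adjusted p = 2.34e-06). With shPC25 it changed by -0.35 (adjusted p = 0.0467), a call lost when any array but scram replicate 1 was left out (adjusted p up to 0.146) and under 5 other settings. *Pfkfb4* changed by -0.62 with shPC28 (adjusted p = 0.00685), and by -0.13 after quantile normalization (adjusted p = 0.465).

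The aldolase and triose steps were higher or did not pass the test, with 1 exception. *Aldoa*, the aldolase of muscle and most tumor cells, read 16.37, 16.32 and 16.29 with shPC28, 16.04, 16.05 and 16.11 with shPC25, and 15.83, 15.84 and 15.94 with scram. The groups did not overlap, and the order was that of *Pfkl*. *Aldoa* was 1.37-fold higher with shPC28 (log2 change 0.46, SE 0.08, 95% interval 0.26 to 0.65, adjusted p = 0.00208), and its change of 0.20 with shPC25 missed the threshold (adjusted p = 0.145). The higher *Pfkl* and *Aldoa* with shPC28 kept their sign and their call under all 19 alternatives, but with centering on olfactory receptor probe sets the changes were only 0.31 for *Pfkl* (adjusted p = 0.0307) and 0.26 for *Aldoa* (adjusted p = 0.0494).

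Of the 7 other triose-step genes measured, 2 were higher and 1 was lower with shPC28, where 21.2% of all probe sets were higher and 20.5% lower. *Pgk1*, phosphoglycerate kinase, was 1.30-fold higher (log2 change 0.38, adjusted p = 0.00649), but not with centering on olfactory receptor probe sets (0.18, adjusted p = 0.159). *Tpi1*, which interconverts the triose phosphates, changed by 0.33 (adjusted p = 0.0322), and that call was lost without replicate 1 or 3 of either shPC28 or scram (adjusted p up to 0.112), with only 2 groups in the fit and with the replicate block. Quantile normalization (0.18, adjusted p = 0.195) and centering on olfactory receptor probe sets (0.13, adjusted p = 0.4) ended it too. *Gapdh*, which the study used among its qPCR housekeeping genes, changed by 0.22 with shPC28 (adjusted p = 0.0758) and by 0.11 with shPC25 (adjusted p = 0.455). Its change with shPC28 passed under 4 alternatives, with adjusted p-values down to 0.000161, and was 0.019 with centering on olfactory receptor probe sets. *Bpgm*, the enzyme of the side path through 2,3-bisphosphoglycerate, was the lower one, with a change of -0.78 with either hairpin (adjusted p = 0.00747 with shPC28 and 0.0164 with shPC25). Its call was lost with shPC28 after quantile normalization (-0.37, adjusted p = 0.18), and with shPC25 without replicate 2 or 3 of either shPC25 or scram (adjusted p up to 0.0601).

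**Figure D4:**
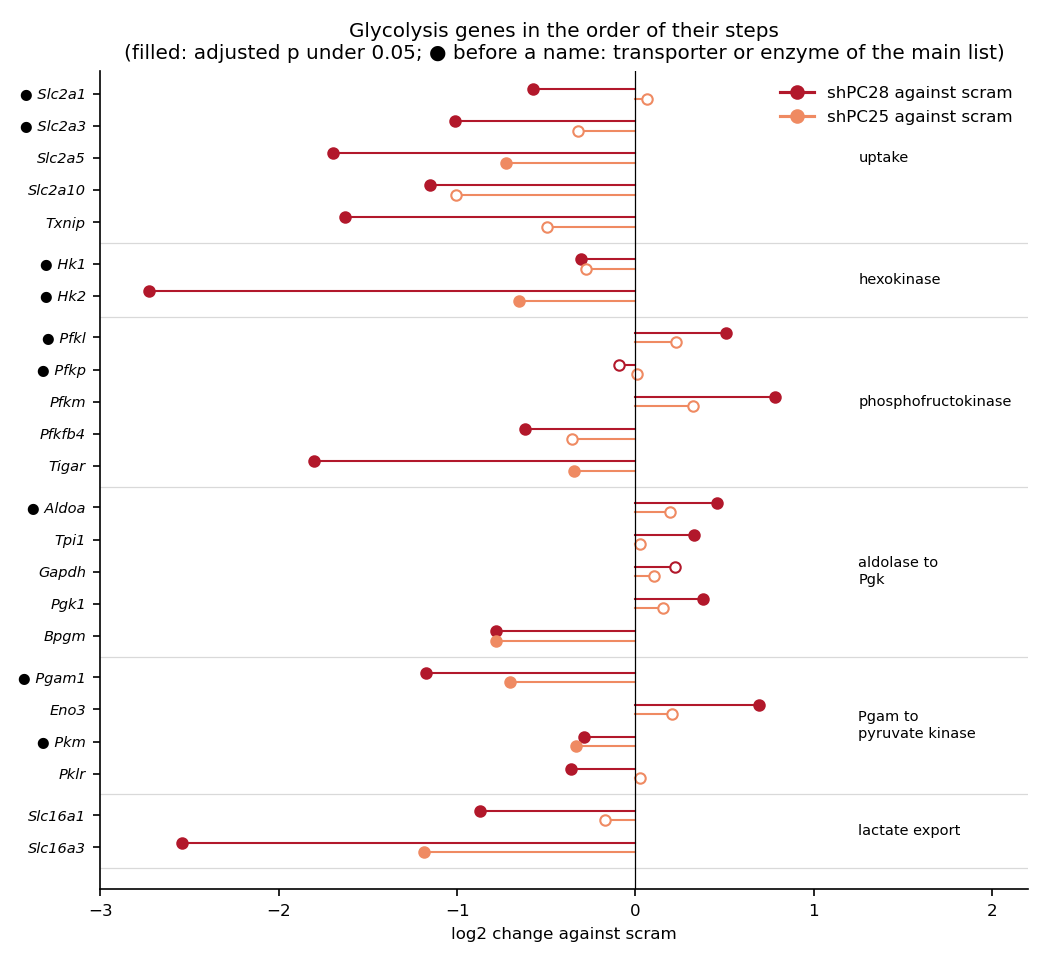
Log2 change against scram (horizontal axis) with shPC28 and shPC25 for named genes of uptake, each group of glycolytic steps and lactate export, from top to bottom in the order of the pathway; filled points have an adjusted p under 0.05. Points of uptake, hexokinase and lactate export lie left of 0 except *Slc2a1* with shPC25, at 0.07, and *Aldoa* to *Pgk1* lie right of it; both *Slc2a1* and *Tpi1* with shPC25 changed sign with the scaling.

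Below the triose steps, *Pgam1* was lower with both hairpins. It encodes phosphoglycerate mutase, which moves the phosphate of 3-phosphoglycerate to the next carbon. *Pgam1* read 14.00, 14.19 and 14.22 with shPC28, 14.62, 14.65 and 14.55 with shPC25, and 15.31, 15.24 and 15.38 with scram. No array of a group reached another group, and shPC28 was lowest. It was 2.26-fold lower with shPC28 (log2 change -1.17, SE 0.10, 95% interval -1.39 to -0.95, adjusted p = 1.65e-05) and 1.63-fold lower with shPC25 (log2 change -0.70, adjusted p = 0.0015). Both calls held under all 19 alternatives. *Pgam1*, *Aldoa* and *Gapdh* have near-identical pseudogene copies in the mouse genome, and whether their probe sets also read these was not tested.

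*Pkm*, pyruvate kinase of muscle and tumor cells, changed by a similar small amount with either hairpin. Its values were 16.41, 16.45 and 16.43 with shPC28, 16.34, 16.41 and 16.40 with shPC25, and 16.78, 16.65 and 16.72 with scram. The scram arrays were above all others, and the hairpins against *Pcx* overlapped. *Pkm* was 1.22-fold lower with shPC28 (log2 change -0.29, SE 0.08, adjusted p = 0.0228) and 1.26-fold lower with shPC25 (log2 change -0.33, adjusted p = 0.0232). The call with shPC28 was lost without replicate 1 or 3 of either shPC28 or scram (adjusted p 0.0527 to 0.0712). The call with shPC25 was lost without any 1 of the shPC25 arrays or scram replicate 1 or 3 (adjusted p 0.0524 to 0.077). With arrays centered on their median, the adjusted p was 0.148 with shPC28 and 0.112 with shPC25, while centering on olfactory receptor probe sets gave a change of -0.49 with shPC28. The replicate block ended both calls (adjusted p = 0.072 with shPC28 and 0.0832 with shPC25). With only 2 groups in the fit, the call with shPC28 was lost too (adjusted p = 0.0511). The single probe set covers 2 annotated transcripts, so the M1 and M2 splice forms were not separated.

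Of the 5 other genes of the lower steps, 1 was higher and 1 lower with shPC28, where 21.2% of all probe sets were higher and 20.5% lower. *Eno3*, the muscle enolase, averaged 11.70 ± 0.13 with shPC28, 11.21 ± 0.13 with shPC25 and 11.00 ± 0.09 with scram (SD, n = 3 each), a 1.62-fold higher level with shPC28 than with scram (adjusted p = 0.000876). *Pklr*, pyruvate kinase of liver and red cells, changed by -0.36 with shPC28 (adjusted p = 0.0309), a call lost without shPC28 replicate 2 or 3 or any scram array (adjusted p up to 0.0914), with median centering, the replicate block and an intensity trend (adjusted p = 0.217). After quantile normalization its change was 0.09.

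Between the hairpins, 4 of the 9 genes were lower with shPC28 than with shPC25 and 0 were higher. Among all probe sets, 14.5% were lower and 11.8% were higher. With the dimmest 50% left out, 3454 of the remaining probe sets were lower and 2714 higher, beside 3219 and 2610 of all. *Hk2* was 4.23-fold lower (log2 change -2.08, adjusted p = 3.09e-05), *Slc2a3* was 1.62-fold lower (adjusted p = 0.00139), *Slc2a1* was 1.56-fold lower (adjusted p = 0.0115) and *Pgam1* was 1.39-fold lower (adjusted p = 0.00691). *Pcx* ran the opposite way, being lower with shPC25 than with shPC28. *Pfkl* and *Aldoa*, at 0.28 and 0.26 higher with shPC28, missed the threshold (adjusted p = 0.0543 and 0.0517) and passed it with an intensity trend (adjusted p = 0.00197 and 9.3e-05). *Hk1* and *Pkm* overlapped between the hairpins, with 95% intervals of -0.26 to 0.20 and -0.14 to 0.24. The arrays of the hairpins did not overlap for 7 of 9 genes, against 39.5% of all probe sets. They did not overlap for 14 of the 23 further pathway genes above the median probe set.

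Over the rest of the pathway, 44 further genes were listed and 39 were measured. With shPC28, 7 were higher and 10 were lower than with scram, with a median change of 0.20, where 21.2% of all probe sets were higher and 20.5% lower. That balance turned with the scaling, to 12 higher and 9 lower with median centering, 10 higher and 6 lower with quantile normalization, and 3 higher and 12 lower with centering on olfactory receptor probe sets. Over all probe sets these settings gave 6195 higher and 4008 lower, 4854 higher and 4070 lower, and 2676 higher and 5864 lower. With shPC25, 2 were higher and 3 were lower, with a median of 0.07, where 9.19% of all probe sets were higher and 11.3% lower. Median centering gave 4 higher and 2 lower, beside 3151 higher and 1976 lower over all probe sets. Between the hairpins, 2 were higher and 8 were lower with shPC28, with a median of 0.04, where 11.8% of all probe sets were higher and 14.5% lower. All genes changed against scram were among the 23 whose mean lay above the median of all probe sets. Of the 4 genes for reverse steps of gluconeogenesis, *G6pc3*, the widely expressed glucose-6-phosphatase, was 0.48 higher with shPC28 on the log2 scale (adjusted p = 0.00245), with an adjusted p of 0.0507 after centering on olfactory receptor probe sets, and the other 3 did not pass.

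Regulators of these genes changed in both directions. *Hif1a*, the oxygen-regulated subunit of HIF1, read 15.37, 15.49 and 15.38 with shPC28, 15.98, 15.90 and 15.99 with shPC25, and 16.05, 15.92 and 16.03 with scram. It was 1.50-fold lower with shPC28 (log2 change -0.59, adjusted p = 0.000625), and its change with shPC25 was -0.04, with a 95% interval of -0.25 to 0.16. *Arnt*, the constant partner of HIF1, was higher with both hairpins, by 0.80 with shPC28 (adjusted p = 7.05e-05) and by 0.57 with shPC25 (adjusted p = 0.00207). *Myc* averaged 16.19 ± 0.07 with shPC28, 17.00 ± 0.08 with shPC25 and 16.66 ± 0.12 with scram (SD, n = 3 each), so that it was lower with shPC28 (log2 change -0.47, adjusted p = 0.00427) and higher with shPC25 (0.34, adjusted p = 0.0394) than with scram. The shPC25 call of *Myc* was lost without shPC28 replicate 3, any shPC25 array, or scram replicate 2 or 3 (adjusted p up to 0.126), and under 4 other settings. *Mlxip*, which pairs with MLX to sense glucose 6-phosphate, changed by -0.62 with shPC28 (adjusted p = 0.00795), and by -0.22 after quantile normalization (adjusted p = 0.287). *Mlx* itself, named after its values were seen, was 0.33 higher on the log2 scale with shPC28. These are mRNA levels, while HIF1 is largely set by the stability of its protein.

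At the exit of the pathway, mRNA of both listed lactate transporters was lower with shPC28, and that of *Slc16a3* also with shPC25. *Slc16a3* encodes MCT4, which exports lactate, and read 13.70, 13.55 and 13.61 with shPC28, 14.77, 15.03 and 15.13 with shPC25, and 16.12, 16.24 and 16.13 with scram. It was 5.83-fold lower with shPC28 (adjusted p = 8.18e-07) and 2.28-fold lower with shPC25 (adjusted p = 0.000276). *Slc16a1*, MCT1, changed by -0.87 with shPC28 (adjusted p = 0.000184) and by -0.17 with shPC25 (adjusted p = 0.327). *Ldha*, the lactate dehydrogenase subunit, was named after its values were seen, with changes of 0.20 with shPC28 (95% interval -0.01 to 0.40) and 0.14 with shPC25 (-0.07 to 0.35). By immunoblot, the paper reported more LDH-A and MCT-1 protein in PC-depleted cells than in controls. It also reported more extracellular lactate from PC-depleted E0771 cells. Protein and lactate were not measured on these arrays.

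The profile of *Hk2* over the 9 arrays was shared by many genes. Among 9969 other named probe sets above the median level, 1076 correlated with it above 0.95, and the closest were *Sec23a* and *Larp4b* (Pearson r 0.998 each) and *Slc12a2*, *Dusp7* and *Aftph* (0.997 each). *Sec23a*, a coat protein of vesicles that leave the endoplasmic reticulum, averaged 10.29 with shPC28, 12.31 with shPC25 and 13.01 with scram. The points are 9 arrays in 3 groups, so that these correlations mostly follow the group means, and they are given without a test.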

How the data were processed

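The series holds 9 Clariom S arrays of total RNA from E0771 cells, 3 per group. The authors labelled cDNA with the WT PLUS kit and used Transcriptome Analysis Console; the deposited values, taken as log2 because all lay between 1.51 and 18.64, hold 1 background-corrected and normalized signal per probe set. Log base, normalization algorithm and genome build: not given in the sources used here. All 22206 probe sets were used, with 0 missing values. The platform annotation gave 1 symbol to 19572 of them and none here to 2634.

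In R 4.3.3 with limma 3.58.1, lmFit and eBayes estimated a mean for each group from all 9 arrays together. Benjamini-Hochberg adjustment of the two-sided p-values covered all 22206 probe sets. Precision is limited by there being 3 arrays a group: the median standard error was 0.16 for shPC28 against scram. Fits were tested on simulated data. Paralog differences were tested by an exact permutation test.

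The genes and lists were chosen with earlier results of these data known. Named were the listed genes, *Pcx*, *Gapdh*, *Tpi1*, *Pgk1* and *Gpi1* (not matched here), lactate transporters, and changed pathway genes with a group mean over 4.95 (the median probe set), up to 4 a list by p. Alternatives were filters on the dimmest 25% and 50%, quantile normalization, centering on array medians or on 1091 olfactory receptor probe sets, which these cells should hardly express, other variance models, array weights, fits to 2 groups, a replicate block, and each array left out in turn. No positive pairing by replicate number was seen: correlations of deviations between same-numbered arrays were -0.18 to -0.14, with 0 of 9 above 0.1. All were negative, and whether arrays were tied in an order other than their numbers was not tested. Promoter windows came from the RefSeq table on GRCm38.p6, which had 15 windows for 9 of the 10 genes. Of these genes, 5 had a single window, and 4 of those windows are printed.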

Additional observations from a re-analysis of the deposited data

Results flagged for a closer look

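For 3 genes the values of the hairpins lay on opposite sides of scram and the difference between the hairpins passed the test. *Slc2a1* had a log2 change of -0.57 with shPC28 and of 0.07 with shPC25, a difference of -0.64 (adjusted p = 0.0115 in limma), although the shPC25 value was not past the threshold (adjusted p = 0.802) and took the opposite sign under 3 alternatives. *Myc*, the one of these that passed against scram with both hairpins, changed by -0.47 with shPC28 and by 0.34 with shPC25, a difference of -0.81 (adjusted p = 0.000418). Its call with shPC25 (adjusted p = 0.0394) was lost under 10 of 19 alternatives (adjusted p up to 0.126). *Pklr* had -0.36 with shPC28 and 0.03 with shPC25, where the shPC25 value was not past the threshold (adjusted p = 0.903) and took the opposite sign under 2 alternatives. Its difference of -0.39 (adjusted p = 0.0344) was lost when any array other than shPC28 replicate 1 and shPC25 replicate 3 was left out (adjusted p up to 0.113), after quantile normalization (-0.20, adjusted p = 0.243), with an intensity trend (adjusted p = 0.222), with 2 groups in the fit (adjusted p = 0.0801) and with the replicate block (adjusted p = 0.071).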

How the results depend on the processing

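Of the 27 tests of the 9 genes (3 comparisons each), 15 passed the threshold and 11 of these passed under all 19 alternatives. The other 4 were *Hk1* and *Pkm* with shPC28 and *Hk2* and *Pkm* with shPC25. Of the 12 that did not pass, 5 passed under none. No listed gene had a second probe set to use in place of the first.

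With shPC28, 8 of the 9 genes changed against scram, and 6 to 9 over all alternatives. With shPC25 the count of 3 (0 higher) became 4 (2 higher) with median centering, 7 without the dimmest 50% of probe sets, 7 with an intensity trend and 5 with centering on olfactory receptor probe sets, and was 2 to 3 with an array left out. For the other pathway genes with shPC25, the count of 5 became 8 without the dimmest 50%, 9 with the trend, 3 with only 2 groups in the fit and 3 with the replicate block, and was 2 to 6 with an array left out, the 2 arising without shPC25 replicate 2, scram replicate 2 or scram replicate 3. Over all probe sets, 4541 changed with shPC25, against 3021 (without scram replicate 3) to 4512 with an array left out. That number was 5784 with the trend, 5127 with median centering and 4254 with centering on olfactory receptor probe sets. With only 2 groups in the fit it was 4544, and without the dimmest 50% it was 5244 of the remaining probe sets. The replicate block gave 8074 probe sets for shPC28 against scram (9265 without it), 3073 for shPC25 against scram (4541) and 4552 for shPC28 against shPC25 (5829). The *Slc2a1* minus *Slc2a3* shift of 0.44 with shPC28 ranged over 0.29 to 0.61 with an array left out.

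Scaling moved the balance of calls. The share of higher among changed probe sets was 50.8% with shPC28, 60.7% with centering on medians and 31.3% on olfactory receptor probe sets. With shPC25 it was 44.9%, 61.5% with centering on medians and 31.4% on olfactory receptor probe sets, and between hairpins 44.8% and 26.6% on olfactory receptor probe sets. The median of all probe sets with shPC28 was 0.10, 0.20 with centering on medians and -0.10 on olfactory receptor probe sets. The causes were not tested.

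Some small changes took the opposite sign, none of them with an adjusted p under 0.05 on both sides. With shPC28 against scram, *Pfkp* was 0.013 with median centering and *Pklr* 0.088 after quantile normalization. With shPC25 against scram, quantile normalization gave *Slc2a1* -0.011, *Pfkp* -0.042 and *Tpi1* -0.051, centering on olfactory receptor probe sets gave *Slc2a1* -0.0081, *Pfkp* -0.068, *Tpi1* -0.051 and *Pklr* -0.048, and centering on medians gave *Hif1a* 0.055. Between the hairpins, quantile normalization gave *Pkm* -0.042, *Slc2a10* 0.025 and *Pfkfb4* 0.03, centering on olfactory receptor probe sets gave *Pkm* -0.080, *Bpgm* -0.12 and *Gapdh* -0.013, and array weights gave *Bpgm* -0.016. With an array left out, shPC25 against scram ranged over -0.027 (without scram replicate 2) to 0.19 for *Slc2a1*, -0.005 (scram replicate 1) to 0.015 for *Pfkp*, -0.035 (scram replicate 3) to 0.07 for *Tpi1* and -0.057 (shPC25 replicate 1) to 0.13 for *Pklr*. Between the hairpins, the range was -0.095 to 0.045 (shPC25 replicate 1) for *Hk1*, -0.52 to 0.25 (shPC25 replicate 1) for *Slc2a10* and -0.095 (shPC25 replicate 3) to 0.17 for *Bpgm*.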
